A study of Mus musculus with 8 samples.

Results

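The MHC class II presentation genes are 10 mouse genes that build, load and switch on the class II antigen-presenting molecule. They were chosen by name for their role in presentation, with earlier results of these data known: the chains H2-Aa, H2-Ab1 and H2-Eb1, the invariant chain Cd74, the protease Ctss, the loading factors H2-DMa, H2-DMb1, H2-Oa and H2-Ob, and the transcriptional activator Ciita. These are 10 of the 51789 genes in the deposited table, and 10 of 10 passed the filter on low counts among the 17858 genes tested.

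Class II molecules display peptides from endocytosed proteins to CD4+ T cells. An alpha and a beta chain pair in the endoplasmic reticulum around the invariant chain, which blocks the groove and guides the complex to endosomes, where cathepsin S trims the invariant chain to a short remnant. H2-DM then exchanges this remnant for antigenic peptide, H2-O restrains H2-DM, and CIITA, which binds no DNA itself, is recruited to factors on the promoters of all of these chains. B cells, dendritic cells and macrophages are the usual class II-expressing cells of a mammary gland, and the inguinal lymph node lies within the abdominal mammary fat pad.

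RNA from mammary gland tissue was sequenced 6 weeks after sEV injection in 3 control libraries (labelled control, here sEVCTRL), 3 libraries labelled normoxia exosomes (sEVNORM) and 2 labelled hypoxia exosomes (sEVHYP). By the study's text the recipients were female, immunocompetent C57BL/6 mice given 1 injection in the abdominal mammary gland, the sEVs came from cultured mouse breast cancer cells, chiefly the AT3 line, kept in normoxia or hypoxia, and the control was medium without cells taken through the same isolation. The labels name neither the AT3 line nor the animals, their age is not given in the sources used here, and whether the lymph node was removed is not given either. Total counts ran from 18194996 to 24622569 per library, and P values measure the spread between these libraries, with 2 of them in the sEVHYP group. Markers of the labelled tissue were present in every library: the 10 adipocyte markers summed to 14770.0 to 30593 CPM (counts scaled to library size) and the 10 epithelial markers to 929.9 to 2012 CPM. Library sizes were scaled throughout by the trimmed mean of M values (TMM).

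The promoters of class II genes are known for an X box, bound by the RFX complex, and a Y box, bound by NF-Y, on which CIITA assembles. The core of the Y box, CCAAT, and the core of the X box (G, any pair of bases, then ACNGATG, with N for any base) were searched on both strands of the RefSeq promoters (GRCm38.p6, 250 bases before to 50 after the start), which were held for 7 of the 10 genes in 8 promoters and not for H2-Ab1, Cd74 and Ciita. The 5 promoters below are shown because each holds ATTGG, the reverse complement of CCAAT, with room for the stretch shown before it. In these 5 it turned out to start between 61 and 43 bases before the gene's start. Each stretch is 90 bases long, 5′ to 3′ on the gene's own strand and aligned on ATTGG, with matches to either motif in capitals.
H2-Aa (chr17:34287842-34287931, minus strand): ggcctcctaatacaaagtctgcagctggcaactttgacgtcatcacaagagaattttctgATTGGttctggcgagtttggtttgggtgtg
H2-Eb1 (chr17:34305748-34305837, plus strand): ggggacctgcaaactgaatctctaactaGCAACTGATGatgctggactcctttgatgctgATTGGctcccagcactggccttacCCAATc
H2-DMb1 (chr17:34153070-34153159, plus strand): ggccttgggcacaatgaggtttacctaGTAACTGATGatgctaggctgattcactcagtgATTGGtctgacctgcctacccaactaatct
H2-Oa (chr17:34092276-34092365, plus strand): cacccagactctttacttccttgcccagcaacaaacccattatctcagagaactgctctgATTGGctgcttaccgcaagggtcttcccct
H2-Ob (chr17:34238788-34238877, plus strand): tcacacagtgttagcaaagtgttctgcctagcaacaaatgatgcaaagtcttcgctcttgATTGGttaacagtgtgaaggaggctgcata
H2-Eb1 and H2-DMb1 hold the X core on the gene's strand, 22 and 23 bases before ATTGG, and H2-Eb1 has a second, plus-strand CCAAT. In H2-Oa the X letters start 140 bases before the start, outside the stretch shown, and 87 bases separate them from ATTGG, a wider gap than in those 2 genes. A match or its absence concerns the letters alone, and whether an X box works at any of these places was not tested. H2-Aa, H2-Ob, H2-DMa and Ctss did not match the X letters in this window, and Ctss and the first of 2 H2-DMa promoters did not match CCAAT, while the second H2-DMa promoter held it 198 bases before the start. Among all 32851 promoters, 37.4% held CCAAT, 2.97% the X letters and 1.21% both, and 2.57% held ATTGG starting in the stretch from 61 to 43 bases before the start, a range taken from the genes shown.

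The classical chains were abundant, and their levels overlapped between treatments. H2-Aa, the alpha chain of I-A (chr17:34282744-34287823, minus strand, GRCm38), had 1622, 908 and 1289.6 CPM in the sEVCTRL libraries, 1364, 1749 and 1112 CPM in the sEVNORM libraries and 1261 and 854 CPM in the sEVHYP libraries. The highest value was in sEVNORM replicate 2 and the lowest in sEVHYP replicate 2, and the ranges of the 3 groups overlapped. The fitted H2-Aa log2 fold change was -0.41 (SE 0.31, 95% interval -1.11 to 0.28) for sEVHYP against sEVNORM, with an unadjusted P of 0.210 in edgeR's quasi-likelihood test. In bulk tissue, fewer cells of a type and less RNA per cell cannot be told apart, for this gene and for all that follow.

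H2-Ab1, the beta chain that pairs with H2-Aa (chr17:34257689-34269419, plus strand), had 345, 188 and 282 CPM with sEVCTRL, 296, 322 and 221 CPM with sEVNORM and 268 and 180.3 CPM with sEVHYP. It was the 1 member whose highest library was sEVCTRL replicate 1, and its groups overlapped. H2-Eb1, the beta chain of I-E (chr17:34305867-34316674, plus strand), had 423, 251 and 337 CPM with sEVCTRL, 365, 480.4 and 314 CPM with sEVNORM and 361 and 229 CPM with sEVHYP. Its order of libraries followed that of H2-Aa at the top and at the bottom. For sEVHYP against sEVNORM the fitted log2 fold change was -0.32 (SE 0.29) for H2-Ab1 and -0.39 (SE 0.29) for H2-Eb1, both with intervals that included 0.

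The I-E alpha chain is not functional in the C57BL/6 haplotype, and its locus, annotated as H2-Ea-ps, had 0 counts in all 8 libraries (floor, 3 counts per library). H2-Eb2, a further beta chain gene beside H2-Eb1, ranged from 26.4 CPM in sEVHYP replicate 2 to 67.7 CPM in sEVNORM replicate 2, the same outer libraries as H2-Eb1.

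Cd74, the invariant chain (chr18:60803848-60812652, plus strand), was nearly matched to H2-Aa in every library. It had 1608, 871 and 1279.6 CPM with sEVCTRL, 1265, 1663 and 1061 CPM with sEVNORM and 1240.4 and 799.7 CPM with sEVHYP. Its groups overlapped, and its fitted log2 fold change was -0.38 (SE 0.32) for sEVHYP against sEVNORM and -0.30 (SE 0.32) for sEVHYP against sEVCTRL. Ctss, cathepsin S (chr3:95526786-95556403, plus strand), had 297, 229 and 186 CPM with sEVCTRL, 265, 327 and 238 CPM with sEVNORM and 244 and 161 CPM with sEVHYP. Ctss was low in sEVCTRL replicate 3, where Cd74 and H2-Aa were second highest of their group, so the number of Ctss counts per Cd74 count was 0.145 there and 0.263 in sEVCTRL replicate 2. The difference of Ctss between sEVHYP and sEVNORM, a log2 fold change of -0.45 (SE 0.26, 95% interval -1.04 to 0.14), had the lowest unadjusted P of the 10 genes in that comparison, 0.118 in edgeR's test.

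Among the loading factors, H2-DMb1 had the narrowest range of the 10 genes over the libraries, and the H2-O chains had the widest. H2-DMb1 (chr17:34153072-34160230, plus strand) had 24.5, 15.7 and 20.5 CPM with sEVCTRL, 22.9, 26.3 and 18.3 CPM with sEVNORM and 21.5 and 15.2 CPM with sEVHYP, a 1.73-fold range. H2-DMa, its alpha chain partner (chr17:34119541-34139101, plus strand), had 45.1, 21.6 and 45.5 CPM with sEVCTRL, 36.2, 47.5 and 29.5 CPM with sEVNORM and 37.7 and 22.5 CPM with sEVHYP. Here sEVCTRL replicate 3 stood with the high libraries and sEVCTRL replicate 2 was the lowest of all 8. H2-DMb2, the neighbouring second H2-DM beta gene, carried 3.01 to 5.59 times the counts of H2-DMb1, with the highest ratio in sEVCTRL replicate 1 and the lowest in sEVHYP replicate 2. Of the 50-base words in H2-DMb1 transcripts, 22.7% also occur in H2-DMb2, so how reads were split between these genes is uncertain. H2-DMa overlaps Brd2 on the opposite strand over 3094 bases, and the sources used here do not state whether counting used strand. Brd2 had 108 CPM in sEVCTRL replicate 2 and 145 CPM in sEVNORM replicate 2, its lowest and highest libraries, well above H2-DMa. Its range was 1.35-fold, against 2.20-fold for H2-DMa. How far Brd2 reads add to the H2-DMa counts was not tested.

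H2-Ob, the beta chain of H2-O (chr17:34238903-34254414, plus strand), had 299, 138 and 138 CPM with sEVCTRL, 217, 358 and 146 CPM with sEVNORM and 201 and 92.0 CPM with sEVHYP. H2-Oa, the alpha chain (chr17:34092340-34095234, plus strand), had 29.5, 9.99 and 24.1 CPM with sEVCTRL, 26.3, 33.1 and 15.5 CPM with sEVNORM and 21.2 and 10.8 CPM with sEVHYP. The 8 libraries spanned 3.90-fold for H2-Ob and 3.32-fold for H2-Oa, and the partners parted in sEVCTRL replicate 3, where H2-Oa was high and H2-Ob was not. The fitted difference between sEVHYP and sEVNORM was the widest of the 10 genes for H2-Ob, -0.71 in log2 (SE 0.49, 95% interval -1.83 to 0.40), and -0.64 (SE 0.49) for H2-Oa. Per kilobase of exon, the H2-O level was 1.59 times the level of H2-DMa plus H2-DMb1 in sEVHYP replicate 2 and 3.06 times in sEVNORM replicate 2. With H2-DMb2 added to the H2-DM side the same quotient was 0.593 and 0.817. These libraries were the lowest and the highest of the 8 under either count of H2-DM, and were also the lowest and the highest in summed class II.

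Ciita, the activator (chr16:10480059-10528418, plus strand), had 90.5, 49.0 and 47.6 CPM with sEVCTRL, 56.7, 106 and 57.4 CPM with sEVNORM and 58.9 and 35.1 CPM with sEVHYP. Of its 8 libraries, sEVCTRL replicate 1 and sEVNORM replicate 2 stood above the rest, each in a different treatment. The fitted log2 fold change was -0.64 (SE 0.39) for sEVHYP against sEVNORM and -0.41 (SE 0.39) for sEVHYP against sEVCTRL, and the groups overlapped in both. Ciita overlaps Dexi on the opposite strand over 25888 bases of their spans, with the same doubt about strand in counting as for H2-DMa.

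**Figure D1:**
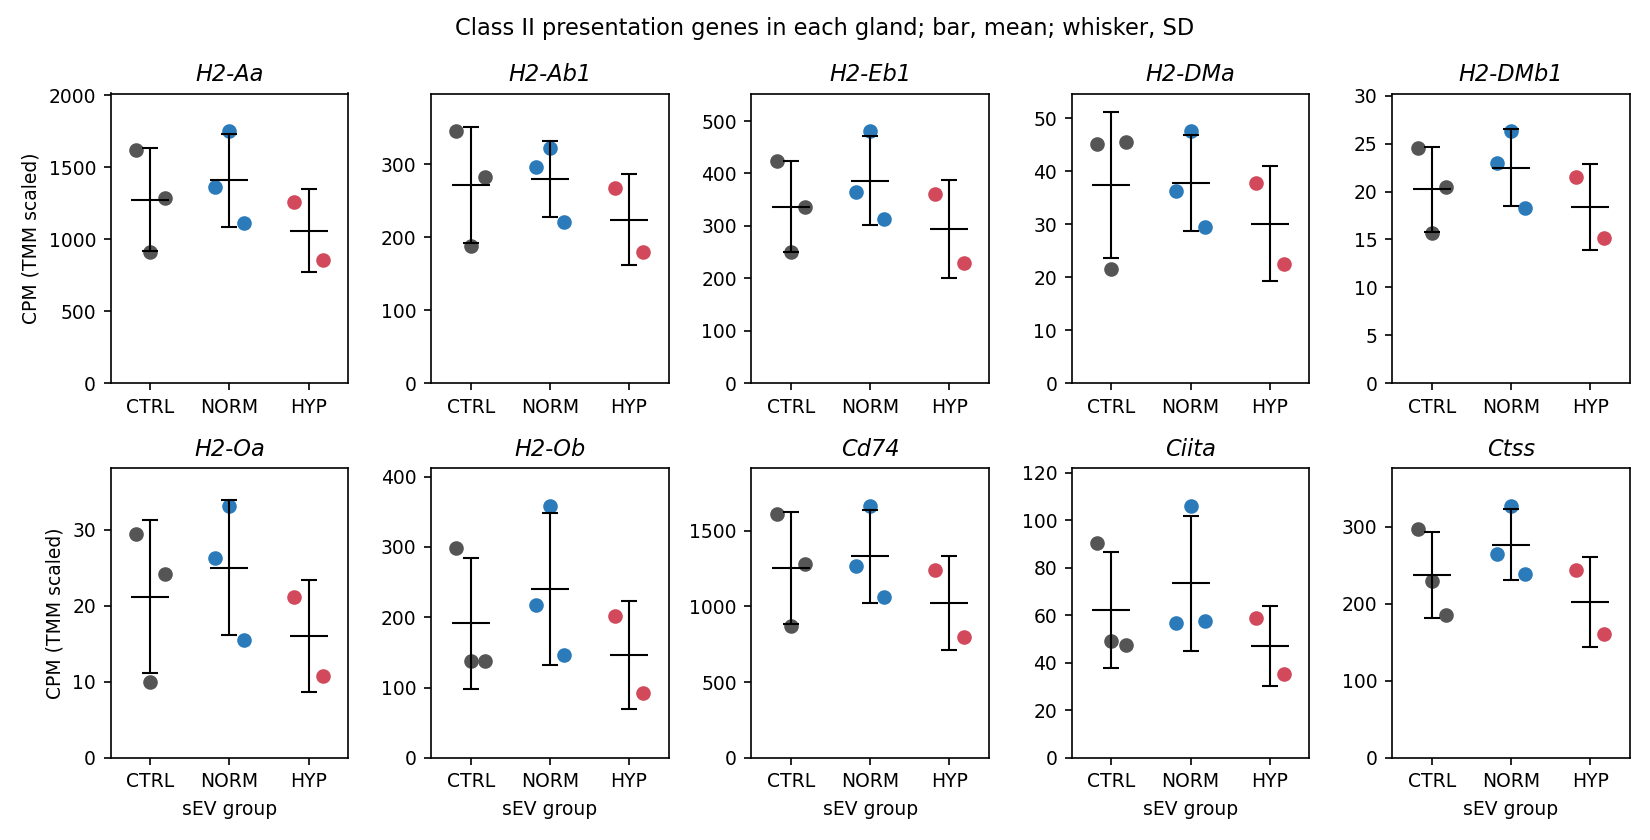
Level of each of the 10 class II presentation genes in TMM-scaled CPM (y axis from 0, its own scale per gene) by sEV group (x axis); points are libraries, bars the group mean and whiskers the SD (3 sEVCTRL, 3 sEVNORM and 2 sEVHYP libraries). For every gene the points of the 3 groups overlap, and 9 of 10 genes peak in sEVNORM replicate 2.

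Per kilobase of exon the members differed widely in level. Cd74 was highest, with 729 ± 185 CPM per kilobase (SD, n = 8), followed by H2-Aa at 334 ± 82.8, and these 2 positions were the same in 8 of 8 libraries. Ctss at 179 ± 40.0 and H2-Eb1 at 177 ± 42.8 were not separated, Ctss being the higher in 5 of 8 libraries, and H2-Ab1 followed at 102 ± 23.7. H2-Ob had 36.9 ± 16.8, H2-Oa 15.1 ± 6.07, H2-DMb1 12.3 ± 2.39, H2-DMa 10.4 ± 2.99 and Ciita 6.57 ± 2.48 CPM per kilobase. H2-Oa, H2-DMb1 and H2-DMa lay within their spread over libraries of each other. Within libraries, H2-Oa was above H2-DMb1 in 6 of 8 and H2-DMb1 above H2-DMa in 7 of 8. The middle of this order depends on the length used. With the longest transcript in place of all exons, H2-Ab1 rose to 217 CPM per kilobase and the third place, Ctss took the fifth, and H2-DMa with 17.8 passed H2-Oa and H2-DMb1.

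Against these levels, none of the 10 genes was called in any of the 3 comparisons by edgeR's quasi-likelihood test at an unadjusted P under 0.05. For sEVHYP against sEVCTRL the count was 0 of 10 members, beside 2.45% of all genes tested. For sEVHYP against sEVNORM it was 0 of 10 beside 3.95%, and for sEVNORM against sEVCTRL 0 of 10 beside 1.62%. At an adjusted P of 0.05 no gene of the 17858 was called in any comparison, with edgeR, where 438, 706 and 290 genes passed the unadjusted threshold in the same order. No member had groups without overlap, while 12.8%, 22.8% and 4.86% of all genes did. The lowest unadjusted P of a member was 0.320 for Ciita, 0.118 for Ctss and 0.362 for Ctss in the 3 comparisons.

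The fitted values leaned 1 way in each comparison without passing the test. For sEVHYP against sEVCTRL the median log2 fold change of the 10 members was -0.29 (range -0.41 to -0.14), beside -0.02 over all genes tested. For sEVHYP against sEVNORM it was -0.40 (range -0.71 to -0.29), beside -0.02. For sEVNORM against sEVCTRL it was 0.18 (range 0.01 to 0.33), beside -0.00. Of the 10 members 0, 0 and 10 had a positive value in this order, beside 47.5%, 47.0% and 49.8% of all genes tested. The 3 comparisons share libraries, and the members share libraries and move together, so the 10 signs do not count as 10 observations. The intervals of single members reached from -1.83 to 0.49 for sEVHYP against sEVNORM, and a P above the threshold does not show that the groups are alike. Leaving out a sEVHYP library leaves 1 in that arm, so P values then take their spread from the other groups and assume that the lone library varies like them, here and in what follows. Without sEVHYP replicate 1 this median was -0.75 and 2 members passed an unadjusted P of 0.05, H2-Ob at -1.39 (edgeR P 0.0498, adjusted P above 0.05) and Ctss at -0.78 (edgeR P 0.0398). Without sEVHYP replicate 2 the medians were -0.13 against sEVNORM and -0.01 against sEVCTRL, and without sEVCTRL replicate 1 the latter was -0.06. The sEVNORM against sEVCTRL median changed sign without sEVCTRL replicate 2 (-0.02) and without sEVNORM replicate 2 (-0.06), and was 0.35 without sEVCTRL replicate 1.

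**Figure D2:**
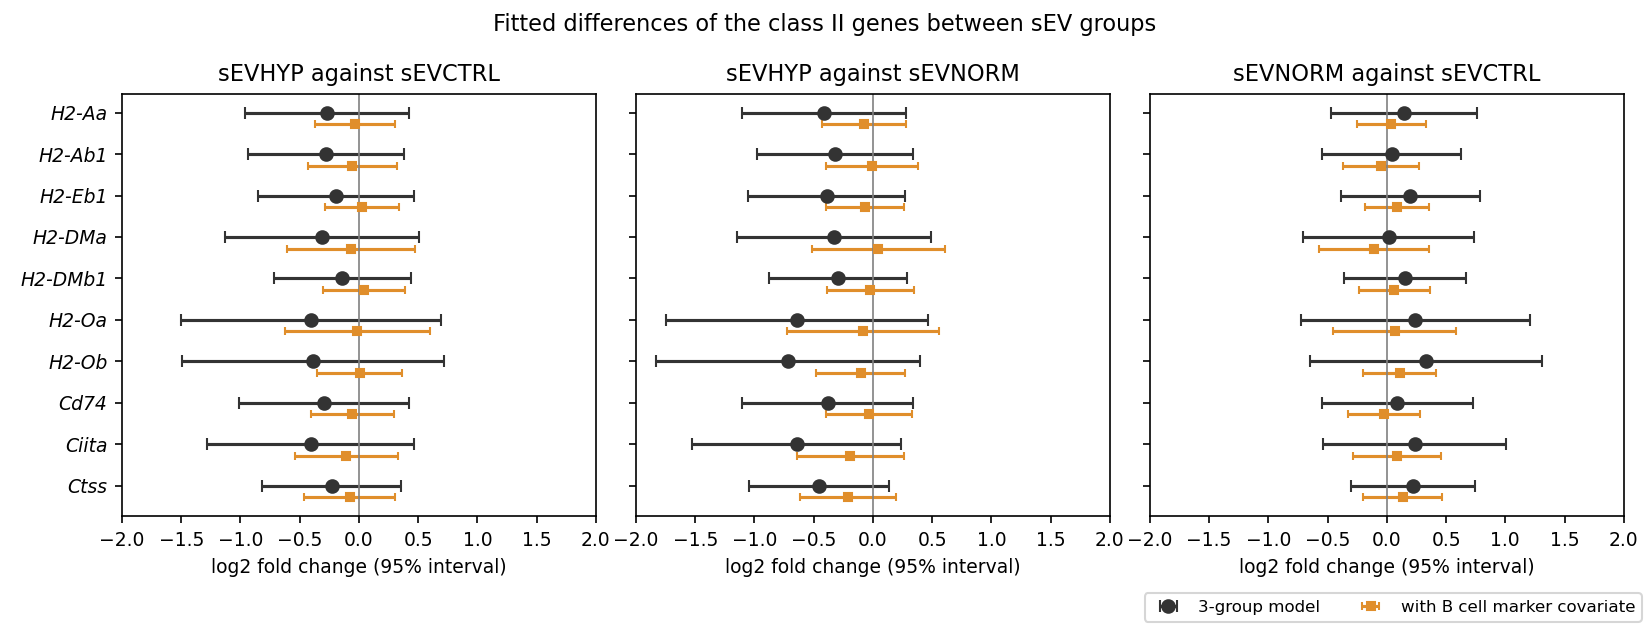
Fitted log2 fold change (x axis) of each class II gene (y axis) with its 95% interval for the 3 comparisons, from the model of the 3 groups (dark circles) and from the same model with the mean log2 CPM of the B cell markers as a covariate (orange squares). All 10 dark circles lie below 0 in both sEVHYP panels, all intervals cross 0, and the squares in those panels lie nearer 0 with shorter intervals. The covariate comes from the same libraries and runs with class II, so this shift was largely built in.

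Libraries of the same treatment differed more than the treatment means did: for the median member, the highest over the lowest library was 1.84-fold within sEVCTRL, 1.57-fold within sEVNORM and 1.56-fold within sEVHYP, while the means of 2 groups differed by at most 1.32-fold. Across members these ranges were 1.56 to 2.95-fold within sEVCTRL, 1.37 to 2.45-fold within sEVNORM and 1.42 to 2.19-fold between the 2 sEVHYP libraries, whereas the sEVNORM mean exceeded the sEVHYP mean by 1.23 to 1.64-fold. Means vary less than single libraries do, so these folds do not weigh treatment against the spread of replicates. Of the 10 genes, 9 were highest in sEVNORM replicate 2 and 1 in sEVCTRL replicate 1. The lowest library was sEVHYP replicate 2 for 8 genes and sEVCTRL replicate 2 for the other 2. Summed over members, class II took 0.514% of all counts in sEVNORM replicate 2, 0.472% in sEVCTRL replicate 1, 0.268% in sEVCTRL replicate 2 and 0.234% in sEVHYP replicate 2. The within-group SD of log2 CPM had a median of 0.393 over members and 0.324 over all genes tested, with H2-Oa at 0.700 and H2-Ob at 0.680. Differences between group means made up a median of 20.2% of the members' variance in log2 CPM and 19.9% of that of all genes. Means of so few libraries differ through the spread of replicates alone, so these shares do not measure an effect of treatment.

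Through these swings some members kept nearly fixed proportions. The ratio of H2-Aa to Cd74 counts stayed between 1.01 and 1.08 in the 8 libraries, the tightest of 45 pairs (SD of the log2 ratio 0.0369). H2-Aa to H2-Eb1 stayed between 3.49 and 3.83 and H2-Aa to H2-Ab1 between 4.57 and 5.43. H2-DMb1 was close to this core, with an SD of the log2 ratio to H2-Aa of 0.0894. The other members were looser. H2-Oa to Ctss ran from 0.0436 to 0.130, a 2.98-fold range and the widest of the pairs. H2-Ob and Ciita were closer to each other (SD 0.208) than H2-Ob was to its partner H2-Oa (SD 0.364).

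**Figure D3:**
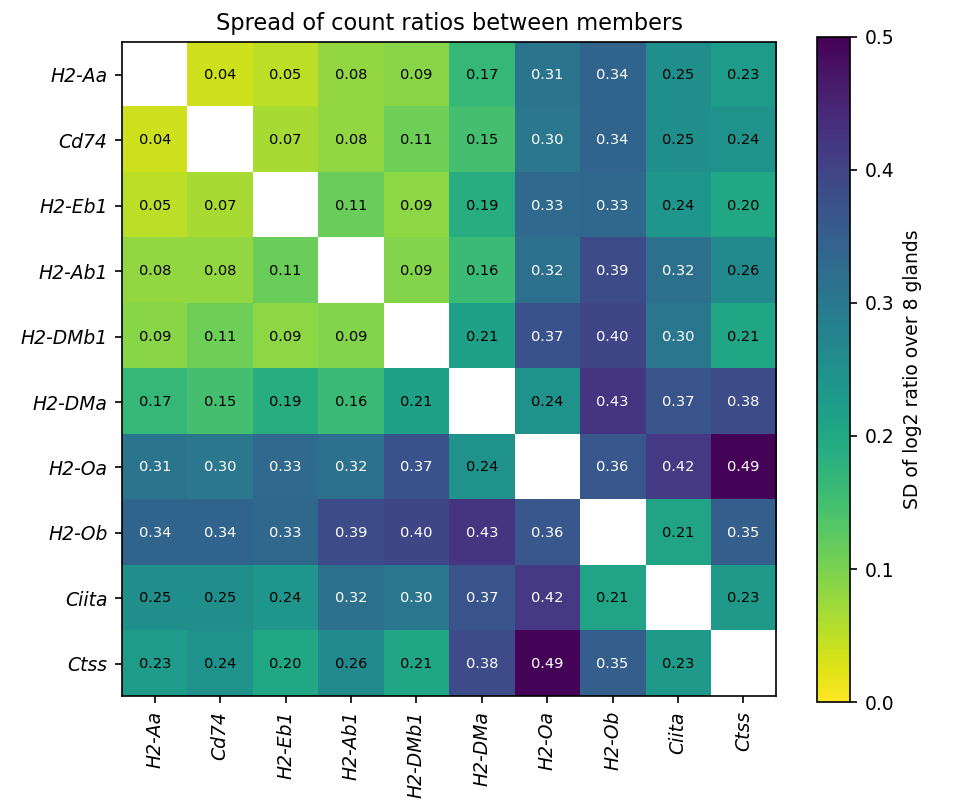
SD over 8 libraries of the log2 ratio of counts for each pair of members (rows and columns, same order; yellow is tight, purple is loose). H2-Aa, Cd74, H2-Eb1, H2-Ab1 and H2-DMb1 form a block of small values, from 0.04 to 0.11, and H2-Oa with Ctss has the largest, 0.49.

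The libraries with high class II counts were those with high B cell markers. The summed level of the 12 B cell markers, all of them detected, was 3236, 1521 and 1802 CPM with sEVCTRL, 2341, 3751 and 1548 CPM with sEVNORM and 2344 and 1091 CPM with sEVHYP, a 3.44-fold range with the same top pair and the same lowest library as the class II sum. Defining markers went along: Cd79b, a chain of the B cell receptor complex, ran from 134 to 534 CPM and Ms4a1 (CD20) from 262 to 858 CPM. As a description over 8 libraries that share depth and composition, Pearson r with the B cell sum was 0.989 for H2-Ob, 0.964 for H2-Eb1, 0.950 for Cd74, 0.895 for Ctss and 0.831 for H2-DMa. With the sum of the 12 T cell markers, r was higher than with the B cell sum for H2-DMa (0.986), H2-Oa (0.968 against 0.892) and H2-Ab1 (0.957 against 0.915), nearly the same for Cd74 (0.947) and lower for Ctss (0.595). The T cell sum was 422 to 869 CPM and the lymph node stroma sum, led by the B cell-attracting chemokine Cxcl13, was 452 to 1195 CPM, with sEVHYP replicate 2 at 438 and 452 CPM. Single lymph node stroma markers differed. Their r with the class II mean had a median of 0.630 and ran from 0.235 for Il7 to 0.931 for Ccl19.

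Macrophage and dendritic cell markers varied less. The 12 macrophage markers summed to 1698 to 1885 CPM with sEVCTRL, 1852 to 2000.4 CPM with sEVNORM and 1354 to 1843 CPM with sEVHYP, a 1.48-fold range, and the 12 dendritic cell markers to 199 to 300.4 CPM, of which Cd207 was too low to test. Epithelial and adipocyte markers ran the other way, as did endothelial markers by their median. The median r with the class II mean was -0.518 for epithelial, -0.568 for adipocyte and -0.701 for endothelial markers. It was 0.984 for B cell, 0.896 for T cell, 0.362 for dendritic cell and -0.0924 for macrophage markers, beside 0.0168 for all genes tested. Single endothelial markers ran from -0.848 for Tek to 0.489 for Pecam1. Single macrophage markers differed, from -0.612 for Folr2 to 0.882 for Lyz2. With the macrophage sum, r of the members ran from 0.601 (H2-DMa) to 0.699 (Ctss). With the dendritic cell sum it ran from 0.328 (Ctss) to 0.701 (H2-DMa). Of the B cell list, 0 of 12 genes were called in each comparison by edgeR at an unadjusted P under 0.05. Beside this, 2.45%, 3.95% and 1.62% of all genes tested were called, in the order sEVHYP against sEVCTRL, sEVHYP against sEVNORM and sEVNORM against sEVCTRL. The medians of the B cell list were -0.40, -0.62 and 0.20 in this order. With the B cell marker mean as a covariate, the class II medians were -0.05, -0.07 and 0.06, and 7, 9 and 3 of 10 members were below 0. The covariate was measured in the same libraries, after treatment, and ran closely with the class II mean. Medians nearer 0 were therefore largely built in. B cells express class II themselves, and the share of each cell type in the class II counts was not tested.

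**Figure D4:**
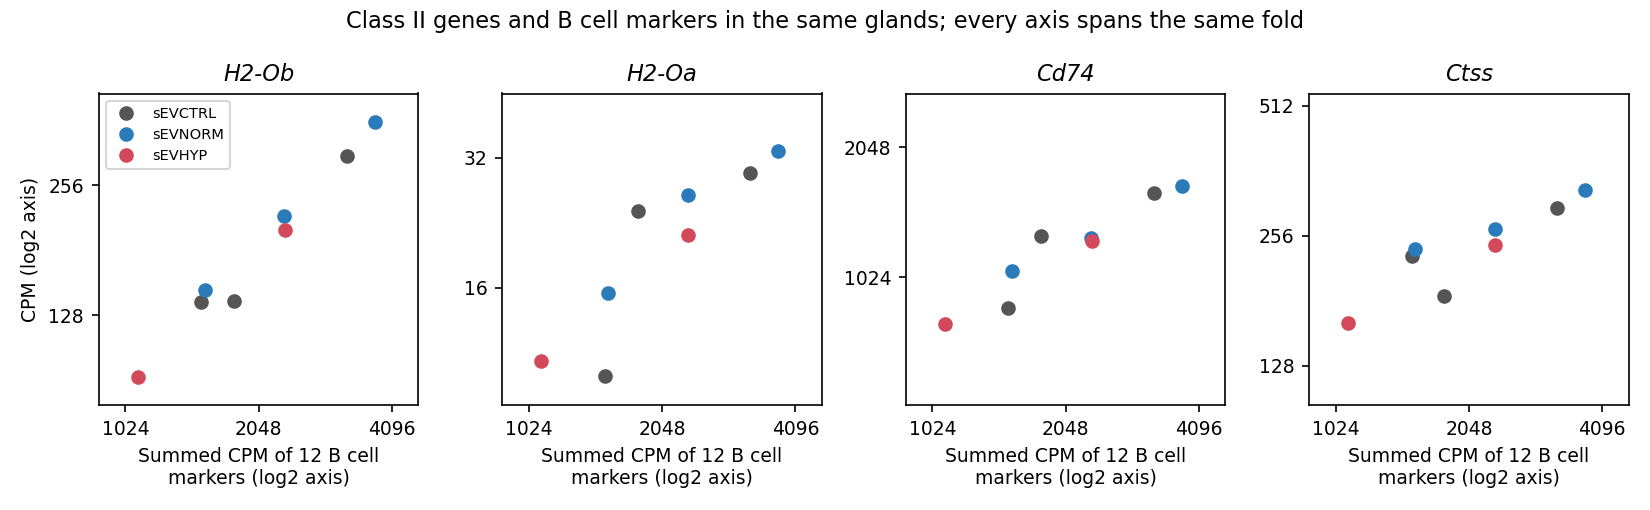
Level of 4 class II genes (y axis, CPM) against the summed CPM of the 12 B cell markers (x axis), both on log2 axes that span the same fold in every panel; each point is a library, coloured by sEV group. H2-Ob and H2-Oa climb most steeply along the B cell sum, Cd74 and Ctss less so, and points of the 3 groups lie along the same course.

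The 10 genes outside the list whose log2 CPM was most like the class II mean were led by H2-DMb2 (Pearson r = 0.993 over 8 libraries), Fcrla and Cd22 (both r = 0.993), the latter 2 from the B cell list. They were followed by Traf3ip3, Lat2, Ighv1-81, Rasal3, Itgal, Cnr2 and Skap1, with r from 0.991 down to 0.989. Fcrla had 79.5, 31.3 and 46.7 CPM with sEVCTRL, 53.0, 88.9 and 35.9 CPM with sEVNORM and 51.8 and 23.0 CPM with sEVHYP. Ighv1-81, an immunoglobulin heavy chain segment, rests on 0 to 42 counts.

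The rest of the pathway did not move as 1 block with the members. Of 16 genes of class II transcription and interferon gamma signaling, 0 were called for sEVHYP in either comparison by edgeR. Beside this, 2.45% of all genes tested were called against sEVCTRL and 3.95% against sEVNORM. The list's medians were -0.01, -0.13 and 0.12. By r with the class II mean its genes spread widely: Irf8, a B cell and myeloid factor, had r = 0.980, the RFX subunit gene Rfx5 0.610 and Rfxap -0.426. Ifng itself had 0 to 27 counts per library.

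Among 9 genes of endosomal processing 0 were called in each comparison, and their r with the class II mean ran from -0.445 for the cathepsin inhibitor Cst3 to 0.970 for Ctsh, with Ifi30, the lysosomal thiol reductase, at 0.933 and Ctsb at -0.0115. Of the 3 genes that regulate class II turnover 0 were called. The ubiquitin ligase gene Marchf1 ran with class II (r = 0.920) and its relative Marchf8 against it (r = -0.866). Of 7 genes of costimulation and CD4 0 were called. The highest r were 0.967 for Icosl and 0.954 for Cd40, ligands or receptors on antigen-presenting cells. Cd4 had r = 0.629 and Lag3 0.312, the lowest of the list. Of 14 class I presentation genes 0 were called, and their summed level spanned 1.14-fold over the 8 libraries against 2.13-fold for class II. Most of the class I sum was B2m, the common light chain of class I, which ran from 7654 to 8721 CPM. Single class I genes differed: their r with the class II mean had a median of 0.562. It ran from -0.0721 for Erap1 to 0.922 for Nlrc5, with Tap1 at 0.876 and B2m at 0.153. The counts of 0 called in these lists stand beside 2.45%, 3.95% and 1.62% of all genes tested. These shares are for sEVHYP against sEVCTRL, sEVHYP against sEVNORM and sEVNORM against sEVCTRL. At such shares a short list often holds 0 calls.

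The calls among listed genes other than these fell on markers of antigen-presenting and endothelial cells. For sEVHYP against sEVNORM, 3 of 11 tested dendritic cell markers and 1 of 12 macrophage markers were called by edgeR, beside 3.95% of all genes tested. Ccl22, a chemokine of activated dendritic cells, was higher by 0.90 in log2 (SE 0.27, P 0.00964), with 39.5 and 40.4 CPM in the sEVHYP libraries and 18.9, 25.9 and 19.7 CPM in the sEVNORM libraries, although sEVCTRL replicate 3 also had 40.5 CPM. Itgax (CD11c) fell by 0.49 (SE 0.20, P 0.0400) and Siglech, a plasmacytoid marker, by 0.72 (SE 0.30, P 0.0405), the latter with 78.1 CPM in sEVNORM replicate 2 and P 0.149 without it. Itgax had P 0.126 without sEVNORM replicate 2 and 0.197 without sEVHYP replicate 2, where the remaining sEVHYP library is alone and the other groups supply the spread. Mertk, a macrophage receptor for dying cells, fell by 0.85 (SE 0.26, P 0.00963) and had P 0.0699 without sEVHYP replicate 1, with the spread again from the other groups. For sEVNORM against sEVCTRL, the macrophage Fc receptor gene Fcgr1 rose by 0.52 (SE 0.21, P 0.0341) and the endothelial factor gene Erg fell by 0.49 (SE 0.21, P 0.0434), beside 1.62% of all genes tested called in this comparison, with P 0.152 for Fcgr1 and 0.123 for Erg without sEVNORM replicate 1. None of these passed an adjusted P of 0.05 in edgeR's test, and none of the listed genes was called for sEVHYP against sEVCTRL.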

How the data were processed

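RNA was measured in 8 mammary gland libraries prepared with a polyA-selecting kit. By the labels and the study's methods, the authors aligned with STAR (mm10) and used RSEM 1.2.12 with Ensembl release 89 to estimate counts. The deposited counts are whole numbers, not normalized, and how the estimates became whole is not given in the sources used here. Groups came from the labels.

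A single edgeR 4.0.16 model (R 4.3.3) held the 3 groups, tested by its two-sided quasi-likelihood F-test with 5 residual and 4.08 prior degrees of freedom. Genes were filtered by filterByExpr at 10 counts and libraries scaled by TMM (factors 0.975 to 1.02). All groups shared the model because sEVHYP has 2 libraries. Called means an unadjusted P under 0.05, the study's threshold. Adjusted P values are Benjamini-Hochberg over all genes tested. SEs are the log2 fold change over the root of F. Log2 CPM used a prior count of 2. DESeq2 1.42.0, as used by the authors, was an alternative. The model was tested on simulated data. Symbols and positions came from GENCODE release M21 (Ensembl release 96), with 51596 IDs matched and 144 of 144 listed genes found. The members and lists were chosen with earlier results of these data known. Named were the members, genes of their locus, defining markers, listed genes with an unadjusted P under 0.05, and the 10 genes most like the class II mean. Named beyond this rule, after their values were seen, were pathway genes given with their r. Counts differed beyond sampling noise between every pair of libraries of a group. A result for 1 listed gene is not reported here.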

Additional observations from a re-analysis of the deposited data

How the results depend on the processing

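No member was called under normalization by DESeq2 size factors, DESeq2 on all libraries or on 2 groups, edgeR on 2 groups, or either filter, and the medians kept their direction there. The replicate number as a block gave 1 called member for sEVHYP against sEVNORM (Ctss, -0.61, edgeR P 0.0382) and 0 in the other comparisons. For samples with the same number, r of the deviations from their group means ran from -0.416 to 0.369. For samples with different numbers it ran from -0.369 to 0.467. Deviations sum to 0 within a group, which ties these r values to each other. They cannot decide whether the numbers mark a pairing. Leaving out 1 library gave 0 to 2 called members in that comparison and 0 in the others. The medians then ran from -0.62 to -0.01, -0.75 to -0.13 and -0.06 to 0.35 for sEVHYP against sEVCTRL, sEVHYP against sEVNORM and sEVNORM against sEVCTRL.

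Single members changed sign in 27 of the refits, none of them called. With the B cell covariate these were H2-Eb1 (0.0230), H2-DMb1 (0.0411) and H2-Ob (0.0052) for sEVHYP against sEVCTRL, H2-DMa (0.0445) for sEVHYP against sEVNORM, and H2-Ab1 (-0.0505), H2-DMa (-0.11) and Cd74 (-0.0246) for sEVNORM against sEVCTRL. Leaving out 1 library for sEVHYP against sEVCTRL gave -0.56 to 0.0869 for H2-Eb1, -0.41 to 0.0767 for H2-DMb1, -1.06 to 0.0803 for H2-Ob and -0.56 to 0.0282 for Ctss. For sEVNORM against sEVCTRL it gave -0.0477 to 0.33 for H2-Aa, -0.16 to 0.22 for H2-Ab1, -0.26 to 0.18 for H2-DMa, -0.00076 to 0.29 for H2-DMb1, -0.10 to 0.52 for H2-Oa, -0.0763 to 0.78 for H2-Ob, -0.12 to 0.28 for Cd74 and -0.13 to 0.58 for Ciita. The cause was not tested. Alternatives for Ccl22, Itgax, Siglech, Mertk, Fcgr1 and Erg were added after seeing the data. Of 16 refits for each gene, the call was lost in 8 for Itgax and 8 for Fcgr1. It was lost in 7 for Siglech, 5 for Erg and 1 for Mertk, and Ccl22 kept it in 16. These refits include those that leave 1 sEVHYP library, where the other groups supply the spread. With 3, 3 and 2 libraries a group, the 95% interval of every member included 0 in each comparison of the 3-group model.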
